A study of Mus musculus with 22 samples.

Results

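The TIM genes of the mouse encode cell-surface proteins with an immunoglobulin domain and a mucin-like stalk, and they lie in 1 region of chromosome 11. The 4 members described here, Timd2, Timd4, Havcr1 and Havcr2, were taken by name out of 37991 gene identifiers with RNA-seq counts and 22367 protein-coding genes with a position for methylation. Timd2 was selected on its RNA-seq counts, which differed between wild-type and Rlf mutant livers in these same libraries, and the other members came with it as its relatives. The RNA values of the 4 genes are therefore given as a description with no test. Methylation was not used to choose them.

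Rlf is a zinc finger protein, and MommeD28 is an allele of it recovered from an ENU mutagenesis screen for modifiers of a silenced transgene. The groups compared, from matings of heterozygous mice, were wild-type (Rlf+/+) and homozygous mutant (Rlf MommeD28/MommeD28) mice of the inbred FVB/NJ strain. All groups shared a homozygous multicopy GFP array driven in erythroid cells by the HS-40 enhancer and the promoter of alpha-globin. Whole-genome bisulphite sequencing covered 12 libraries, namely whole embryos at E10.5 and livers at E14.5 and at E18.5, with 2 wild-type and 2 mutant samples in each, those of E14.5 being littermates. RNA-seq covered 6 livers at E14.5, 3 of each genotype. Every E10.5 sample was labelled male and every E18.5 sample female, while E14.5 held both sexes in each genotype, so tissue, stage and sex cannot be told apart across the bisulphite groups.

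As background, TIM proteins bind ligands on other cells through the immunoglobulin domain. Timd4 and Havcr1 recognise phosphatidylserine, a lipid exposed by dying cells, and Timd4 marks tissue macrophages, including Kupffer cells of the liver, which use it to take up apoptotic cells. Havcr2 is an inhibitory receptor of activated T cells and is also found on myeloid cells. Havcr1 is known as a costimulatory molecule of T cells and as a marker of injured kidney epithelium. Timd2 is a rodent gene whose product binds the heavy chain of ferritin and takes it into the cell, and it also binds semaphorin 4A. It has been described in liver, kidney and B cells.

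On NCBIM37 (mm9) the order along chromosome 11 was Havcr2 (46268437 to 46294757, plus strand), Timd2 (46482462 to 46520563, minus strand), Havcr1 (46548582 to 46593080, plus strand) and Timd4 (46624302 to 46657834, plus strand). Timd2 and Havcr1 point away from each other, with separate starts at 46520563 and 46548582. The 250 bases before each annotated start are printed here from mm9, 5′ to 3′ on the strand of the gene, with each CpG in capitals, because some of these CpGs are reported singly or in pairs near the starts.
Timd2, minus strand, chr11:46520564-46520813: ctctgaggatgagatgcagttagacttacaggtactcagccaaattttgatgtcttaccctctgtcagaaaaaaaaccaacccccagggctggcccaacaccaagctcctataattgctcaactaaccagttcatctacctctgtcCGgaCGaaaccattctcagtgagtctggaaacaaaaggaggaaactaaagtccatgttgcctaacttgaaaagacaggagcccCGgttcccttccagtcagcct
Timd4, plus strand, chr11:46624052-46624301: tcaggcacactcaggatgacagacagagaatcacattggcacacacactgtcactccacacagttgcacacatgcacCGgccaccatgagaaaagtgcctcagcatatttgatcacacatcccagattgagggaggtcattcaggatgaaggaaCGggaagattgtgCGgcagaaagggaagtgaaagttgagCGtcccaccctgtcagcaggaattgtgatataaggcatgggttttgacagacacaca
Havcr1, plus strand, chr11:46548332-46548581: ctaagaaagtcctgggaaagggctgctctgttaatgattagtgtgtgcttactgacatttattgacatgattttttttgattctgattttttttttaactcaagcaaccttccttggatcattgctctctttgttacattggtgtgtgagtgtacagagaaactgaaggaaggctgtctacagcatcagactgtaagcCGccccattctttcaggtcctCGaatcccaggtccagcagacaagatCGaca
Havcr2, plus strand, chr11:46268187-46268436: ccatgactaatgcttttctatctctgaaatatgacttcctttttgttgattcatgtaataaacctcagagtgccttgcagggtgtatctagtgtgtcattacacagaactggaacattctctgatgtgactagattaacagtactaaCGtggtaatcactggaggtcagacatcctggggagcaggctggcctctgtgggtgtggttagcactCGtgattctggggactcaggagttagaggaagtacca

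The 4 promoters held 3, 4, 3 and 2 CpGs in these 250 bases, in the order printed. Within 1 kb to either side of the start, mm9 holds 17 CpGs at Timd2, 14 at Timd4, 10 at Havcr1 and 19 at Havcr2, where the median over 22367 genes is 61. Between 8.29% and 19.97% of genes hold fewer, so all 4 starts are poor in CpGs. The letters TATAA, searched on both strands, occur once in the 250 bases of Timd2 and once in those of Timd4, and in neither of the others. They occur in 21.8% of all promoters of this length. The letters GATAA, which share their last 4 letters with TATAA, are in none of the 4 windows and in 21.5% of all promoters.

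The RNA-seq libraries held between 12928313 and 14621004 counts. In the quasi-likelihood test of edgeR, adjusted by Benjamini-Hochberg, 197 of 14183 tested genes (1.39%) differed between the genotypes, 99 higher and 98 lower in the mutants, and 460 did so with replicate number as a block. Rlf itself, which carries a mutation induced by ENU and not a deletion, had 918, 1094 and 982 counts in wild-type livers and 983, 1106 and 963 in mutant livers (log2 difference 0.08, SE 0.070), so its RNA does not check the genotype labels.

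Timd2 was the member with the highest level per length in wild-type liver and the one whose level differed most between the genotypes. Wild-type livers gave 941, 906 and 1012 counts, and mutant livers 256, 252 and 263. The groups did not overlap, and every mutant liver held fewer than 300 counts. Scaled to the size of each library, as CPM, wild-type livers had 67.5 ± 6.67 and mutant livers 18.8 ± 0.904 (SD over 3 livers in both), 3.59-fold higher in wild-type. The log2 difference, mutant minus wild-type, was -1.84 (SE 0.088), and it lay between -1.92 and -1.80 in the 11 other settings tried, including each liver left out in turn. Per kilobase of exon (RPKM), Timd2 was at 19.4 ± 1.92 in wild-type and 5.42 ± 0.26 in mutant livers. That placed it above 74.7% of tested genes in wild-type and above 43.4% in mutant livers, so its RNA was lower but not absent in the mutants. In whole liver, fewer cells of a type and less RNA per cell cannot be told apart.

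Timd4, the macrophage receptor for phosphatidylserine, gave 300, 308 and 316 counts in wild-type livers and 307, 302 and 375 in mutant livers. The groups overlapped. Its level was 21.8 ± 1.31 CPM in wild-type and 23.98 ± 2.27 CPM in mutant livers (SD, n = 3 each), with a log2 difference of 0.14 (SE 0.096). Per length it stood at 10.03 RPKM in wild-type, below Timd2, and at 11.04 RPKM in mutant livers, above Timd2. The order of the 2 genes by level per length was thus opposite in the 2 genotypes.

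Havcr2, the inhibitory receptor, was listed with 12 counts in each wild-type liver and with 9, 11 and 12 in the mutant livers, which is 0.850 and 0.778 CPM on average. The log2 difference was -0.12 with an SE of 0.31. Havcr1 had 4, 5 and 1 counts in wild-type and 3, 2 and 2 in mutant livers, and it was the member of the 4 that did not pass the filter on low counts. At 10 and 7 counts summed over 3 livers, a difference in Havcr1 was not detectable at this depth.

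**Figure D1:**
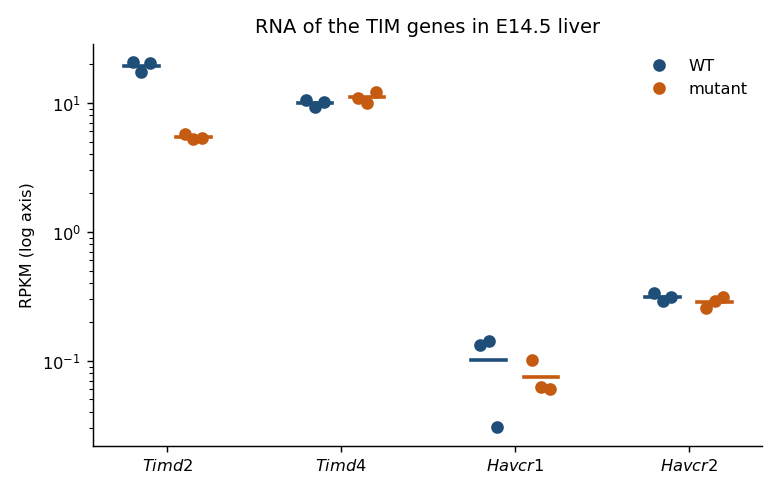
RNA of the 4 TIM genes in E14.5 liver, in RPKM on a log axis. Points are single livers, 3 wild-type and 3 mutant, and horizontal lines are group means. Timd2 stands at 19.4 RPKM in wild-type and 5.42 RPKM in mutant livers with no overlap, while the genotypes overlap for Timd4, Havcr1 and Havcr2.

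The interval of 50 kb to either side of each TIM gene held 4 other protein-coding genes. Med7, a subunit of the Mediator complex, had 351, 358 and 340 counts in wild-type and 305, 339 and 314 in mutant livers. Its log2 difference of -0.08 (SE 0.088) did not pass the test (edgeR adjusted p = 0.724). Fam71b, Gm12169 and Dppa1 were under 10 counts in every liver, Gm12169 at 0 in all of them, and were not tested. None of the 4 was called.

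Genes whose level followed that of Timd2 over the 6 livers were ranked by Pearson correlation of log2 CPM among 13633 genes with a mean of at least 1 CPM. The 5 closest were Snx11, a sorting nexin (r = 0.999), Rfc5, a subunit of the clamp loader of DNA replication (0.999), H6pd, a dehydrogenase of the endoplasmic reticulum (0.998), Hpd, an enzyme of tyrosine breakdown (0.998) and Upb1, an enzyme of pyrimidine breakdown (0.996). In all, 299 genes (2.19%) had a correlation above 0.9. All genes share the 6 libraries and their 2 genotypes, so the ranking is a description. The sizes differed widely. Hpd had 628, 395 and 495 counts in wild-type livers and 5, 4 and 7 in mutant livers, whereas Snx11 differed by -0.38 (SE 0.085) on the log2 scale. Upb1 had a log2 difference of -1.88 (SE 0.11), close to that of Timd2. Among the family, the correlation with Timd2 was -0.54 for Timd4, 0.26 for Havcr1 and 0.56 for Havcr2.

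The genes that TIM proteins bind or work with were looked at in 3 lists, and cell types of the liver in 10 lists of markers, 119 gene identifiers in all, of which 101 were tested. Of these 101, 7 passed the test at an adjusted p under 0.05, beside 1.39% of all genes. The lists were chosen with earlier results of these data known, so this is a description and no evidence of an excess. All 7 passed with replicate number as a block as well. Lists are described by their counts and median log2 difference, where the median over all tested genes was -0.0017.

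Of 8 ligands and binding partners, all were tested and 1 was lower in the mutants (median log2 difference -0.01). It was Lgals9, which encodes galectin-9, a ligand of Havcr2. Lgals9 had 2130, 2112 and 1849 counts in wild-type and 1119, 1356 and 1412 in mutant livers, with no overlap. Its level fell from 144 ± 16.8 to 94.6 ± 6.75 CPM (SD, n = 3 each), a log2 difference of -0.60 (SE 0.085, edgeR adjusted p = 0.00516). Fth1, the ferritin heavy chain bound by Timd2, was at 2192 CPM in wild-type and 2033 CPM in mutant livers, a log2 difference of -0.11 that did not pass the test (adjusted p = 0.523). Bag6, which binds the cytoplasmic tail of Havcr2, differed by 0.05 on the log2 scale (adjusted p = 0.754), and Sema4a, the other ligand of Timd2, by 0.13 (adjusted p = 0.618).

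Timd2 is a receptor for ferritin, and 14 genes of ferritin and transferrin handling were listed, 13 of them tested. Trf, which encodes transferrin, was higher in the mutants, at 1042 ± 123 CPM against 758 ± 52.5 CPM, a log2 difference of 0.46 (SE 0.088, edgeR adjusted p = 0.0289). Its counts were 10079, 10611 and 11470 in wild-type and 13288, 16230 and 13175 in mutant livers. Leaving out a liver ended this call in 4 of 6 cases, namely wild-type replicates 1 and 3 and mutant replicates 1 and 2, with adjusted p between 0.0550 and 0.119. Tfr2, a transferrin receptor that senses iron in hepatocytes and erythroid cells, was lower in the mutants, with 1312, 1633 and 1427 counts against 977, 876 and 896 and a log2 difference of -0.61 (SE 0.077, edgeR adjusted p = 0.00266). Tfrc, the receptor for transferrin uptake, did not pass the test (log2 difference 0.03). The median of the list was -0.07, with 3 of 13 genes above 0.

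Of 19 genes of phosphatidylserine recognition, the function of Timd4 and Havcr1, 18 were tested and 1 passed. Itgb3, the integrin beta chain that takes part in the uptake of apoptotic cells and in platelets, rose by 0.46 on the log2 scale (SE 0.075, edgeR adjusted p = 0.0122), from 136 ± 10.9 to 187 ± 11.1 CPM. Without mutant replicate 3 its adjusted p was 0.0519. The median of the list was 0.24, with 13 of 18 genes above 0. Scarb1, a scavenger receptor that also binds phosphatidylserine, differed by -0.07 on the log2 scale (adjusted p = 0.625).

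The tissue label was checked with the marker lists, none of which was at 0 in all livers. Hepatoblast and erythroid markers, the main cell types of fetal liver, were present in every library. Hepatoblast markers summed to 58978 to 69998 CPM in wild-type and 72470 to 83574 CPM in mutant livers. None of the 11 passed the test, 10 of 11 log2 differences were above 0, and Alb and Afp, the plasma proteins of the liver and fetal liver, differed by 0.27 (edgeR adjusted p = 0.151) and 0.18 (adjusted p = 0.354). Erythroid markers, with 9 of 10 listed genes found, spanned 27500 to 51641 CPM in wild-type and 34570 to 37336 CPM in mutant livers. None passed, and all 9 log2 differences, including those of the globins Hba-a1 and Hbb-b1, were below 0 with a median of -0.15. Their part in the lower Timd2 RNA was not tested.

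Macrophages are the cells known for Timd4. Of 12 macrophage markers, 11 were tested and 1 was lower in the mutants, with a median of 0.06 and summed levels of 574 to 621 CPM in wild-type against 483 to 527 CPM in mutant livers. It was Cd5l, a secreted protein of tissue macrophages, which had 1710, 1339 and 1460 counts in wild-type and 691, 521 and 703 in mutant livers. The log2 difference was -1.19 (SE 0.14, edgeR adjusted p = 0.00187), from 107 ± 21.4 to 46.9 ± 8.31 CPM, and the groups did not overlap. Marco, a scavenger receptor of macrophages, had a log2 difference of -0.59 (adjusted p = 0.0709, and 0.0235 with the replicate block), and Csf1r, the receptor for macrophage colony-stimulating factor, 0.09 (adjusted p = 0.731). Timd4 had 300 to 316 counts in wild-type and 302 to 375 in the same mutant livers. Emr1, C1qa, C1qb and C1qc, further genes of mature macrophages, did not pass the test, with log2 differences of -0.26, 0.06, -0.08 and -0.02. Neither did Clec4f (0.84), Vsig4 (0.75) and Cd68 (0.22), which had values above 0. The part of macrophages in the difference at Timd2 was not tested.

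Lymphocytes, in which Havcr1, Havcr2 and Timd2 have been described, were represented by few counts. The 10 T and natural killer cell markers summed to 3.72 to 5.72 CPM in wild-type and 4.11 to 4.63 CPM in mutant livers, and single T cell markers were at few counts, such as Cd3d with 8, 6 and 4 in wild-type and 0, 1 and 3 in mutant livers. The 8 B cell markers summed to 6.38 to 7.48 CPM and 5.98 to 7.79 CPM. None of the 2 T and natural killer cell markers (Il7r, Nkg7) or the 3 B cell markers that were tested passed.

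In the remaining lists 2 genes passed. Sox9, a transcription factor of bile duct cells, had 27, 19 and 20 counts in wild-type and 51, 49 and 68 in mutant livers, a log2 rise of 1.39 (SE 0.23, edgeR adjusted p = 0.0143). Pf4, a chemokine of megakaryocytes, rose by 0.40 (SE 0.068, adjusted p = 0.0143), and the 6 megakaryocyte markers summed to 519 to 546 CPM in wild-type and 616 to 681 CPM in mutant livers. Sox9 lost its call with wild-type replicate 3, mutant replicate 1 or mutant replicate 3 left out (adjusted p up to 0.0620), and Pf4 with wild-type replicate 3 or mutant replicate 3 left out (up to 0.0663). Of the other bile duct markers, Spp1 (log2 difference 0.87), Epcam (1.22), Krt19 (-0.22) and Krt7 (-0.38) did not pass, and Epcam passed with the replicate block (adjusted p = 0.0978 without and 0.0456 with it). Itga2b, an integrin chain of megakaryocytes, went from an adjusted p of 0.0687 to 0.0322 with the block, at a log2 difference of 0.31. The endothelial list (259 to 281 CPM against 287 to 328 CPM), the mesenchymal list (679 to 839 against 741 to 1042) and the mast cell list (54.3 to 67.5 against 55.6 to 66.98) held no call, though Vim of the mesenchymal list passed with the block (log2 difference 0.23, adjusted p = 0.0456). Most of the mast cell sum was Kit, at 52.4 CPM in wild-type and 53.4 CPM in mutant livers, with Cpa3 at 5.86 and 5.76 CPM. The part of these cell types in the difference at Timd2 was not tested.

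**Figure D2:**
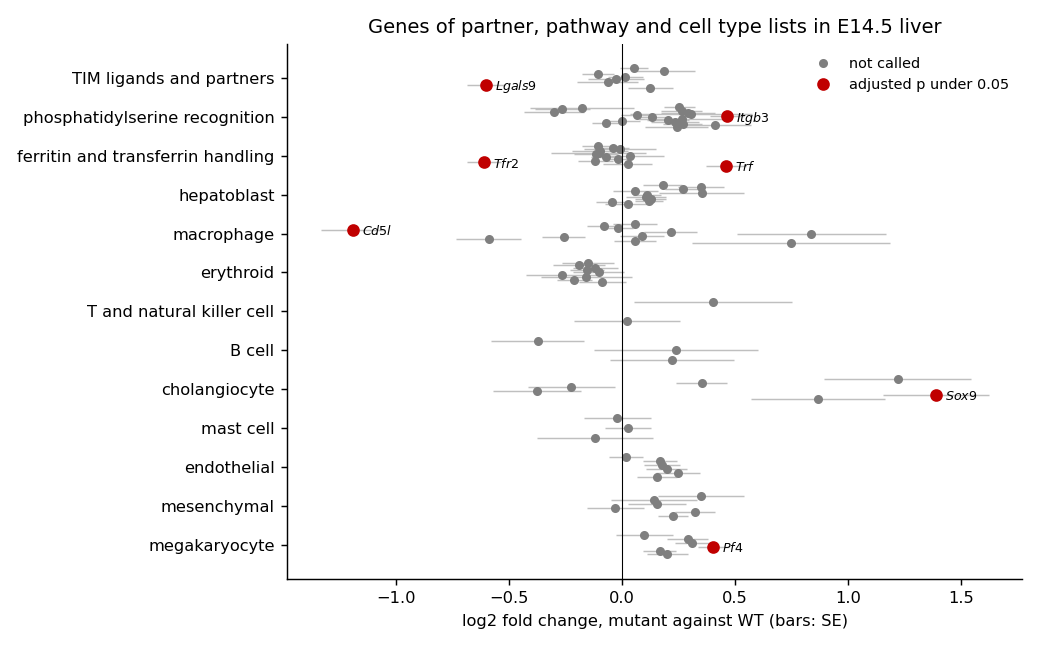
Log2 difference between mutant and wild-type E14.5 livers for the tested genes of the 13 lists, 1 row a list, with bars of 1 SE. The 7 called genes are named and run from Cd5l at -1.19 to Sox9 at 1.39, and some genes of low counts lie as far from 0 with wide bars and were not called.

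Methylation was compared at 3 scales around each gene, as the share of reads, in percent, that were methylated at those CpGs where each of the 12 libraries had 6 reads or more. Reads over CpGs totalled 319866478 to 363002202 per library at E10.5, 628996114 to 710952704 at E14.5 and 346349747 to 357281665 at E18.5. Differences are in percentage points, mutant minus wild-type averaged over the 3 tissues, with a 95% interval from a linear model of the 12 percents with tissue as a term. The p-values are from a logistic model of the reads with dispersion moderated by limma, adjusted over all genes. Within 1 tissue, 2 against 2 libraries cannot go below an exact permutation p of 0.33.

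At the start of Timd2, 12 CpGs within 1 kb with 184 to 576 reads a library were methylated at 92.4% and 91.2% in wild-type and 94.7% and 91.9% in mutant embryos. In E14.5 liver, where the RNA was measured, they were at 67.01% and 64.1% in wild-type and at 65.2% and 69.6% in the mutants, so the genotypes overlapped. In E18.5 liver they were at 72.3% and 60.4% in wild-type and 75.3% and 77.0% in the mutants, which do not overlap. The mean difference was 4.38 points (95% interval -1.10 to 9.87) and did not pass the test (adjusted p = 0.294). With 1 library left out it ran from 2.39 to 6.38 points, and within E14.5 liver alone it was 1.87 points.

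The other 3 starts gave no call either, where 8.75% of 19926 genes were called and the median difference was 0.410 points. Over genes, the median start window was methylated at 7.72% in E14.5 liver, below the TIM starts, so 0.410 points is no measure for them. Havcr2 differed by 5.42 points over 14 CpGs (95% interval -0.717 to 11.6, adjusted p = 0.326), Havcr1 by 3.84 points over 6 CpGs (-2.71 to 10.4, adjusted p = 0.552) and Timd4 by 0.352 points over 8 CpGs (-5.97 to 6.67, adjusted p = 0.838). Havcr2 was at 82.6% and 81.5% in wild-type and 83.6% and 88.8% in mutant embryos, at 50.5% and 56.6% against 59.6% and 49.4% in E14.5 livers, and at 58.4% and 58.4% against 73.5% and 65.7% in E18.5 livers, so the genotypes parted in embryos and in E18.5 livers and overlapped at E14.5. Havcr1 ran from 54% to 61.8% over the 4 E14.5 livers and from 58.1% to 75.3% over the 4 E18.5 livers, with its mutants higher at E18.5. Timd4 was at 61.8% and 61.1% in wild-type and 66.0% and 63.8% in mutant E14.5 livers, a difference of 3.504 points without overlap. It was at 74.3% and 70.1% in wild-type and 76.6% and 60.9% in mutant E18.5 livers, which overlap. These windows had a median of 23 reads per CpG. With 1 library left out, the mean difference ran from 3.73 to 7.11 points at Havcr2 and from 1.93 to 5.75 at Havcr1.

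Across the gene bodies the mutants were slightly higher at all 4 genes and none was called in the fit without a replicate block. The 178 CpGs in Timd2 were at 57.8% and 60.5% in wild-type and 62.3% and 61.1% in mutant E14.5 livers. In embryos they were at 82.1% and 82.7% against 82.8% and 83.5%, and in E18.5 livers at 67.1% and 67.2% against 71.8% and 68.8%. In all 3 tissues the mutant libraries lay above the wild-type libraries. The same held in the body of Havcr2, and in 1 tissue each in those of Timd4 and Havcr1. The share of all gene bodies with this separation was not counted, so it is not read as particular to Timd2. Over all genes, 92.0% of bodies had a mean difference above 0, and 61.7% had a lower one than Timd2. The difference was 2.14 points (95% interval 0.482 to 3.804, adjusted p = 0.0783). It was 2.74 points in Timd4 (adjusted p = 0.0517), 2.103 in Havcr1 (adjusted p = 0.131) and 2.53 in Havcr2 (adjusted p = 0.0546). The background was 20.7% of genes called and a median difference of 1.78 points, with quartiles of 0.969 and 2.57 points. Timd2, Havcr1 and Havcr2 lay between the quartiles and Timd4 lay above them. Timd4 and Havcr2 were called with replicate number as a block (adjusted p = 0.0397 and 0.0480) and with a minimum of 1 read per CpG (0.0382 and 0.0458). Leaving out 1 library moved the difference between 1.64 and 2.65 points at Timd2 and between 2.05 and 3.43 at Timd4. It lay between 1.32 and 2.89 points at Havcr1 and between 2.003 and 3.06 at Havcr2. Whether the members were called changed with the library left out, as did the calls over all genes. Whether the members moved more than other genes was not tested.

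With 50 kb added to either side, all 4 were called higher in the mutants, beside 61.9% of all genes. The differences were 1.99 points at Timd2 (95% interval -0.137 to 4.11, adjusted p = 0.0242), 2.49 at Timd4 (0.484 to 4.51, adjusted p = 0.00780), 2.29 at Havcr1 (0.325 to 4.25, adjusted p = 0.0133) and 2.35 at Havcr2 (0.156 to 4.54, adjusted p = 0.00936). At Timd2 this region, 512 CpGs with 9612 to 21240 reads, was at 56.1% and 59.9% in wild-type and 61.1% and 59.8% in mutant E14.5 livers, where wild-type replicate 1 was the lowest library and the genotypes overlapped. The median over genes was 1.93 points. The interval at Timd2, from the percents of that region alone, holds 0, whereas its p-value uses a dispersion moderated across genes. The region of Havcr1 overlaps those of Timd2 and Timd4, so these 3 calls are not separate evidence, while that of Havcr2 overlaps none of them. All 4 calls ended without wild-type or mutant replicate 1 of E14.5 liver, and that of Timd2 also without replicate 1 of either genotype of E18.5 liver. Calls over all genes fell as well without either of those E14.5 livers, so the loss was not particular to these genes. With 1 library left out, the difference ran from 1.30 to 2.67 points at Timd2 and from 1.86 to 3.13 at Timd4. It ran from 1.66 to 2.91 points at Havcr1 and from 1.44 to 3.26 at Havcr2. All 4 calls also ended in E10.5, E14.5 and E18.5 libraries alone, where 2, 80 and 2 genes in all were called.

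The interaction of genotype and tissue was called at none of the TIM genes at any scale (adjusted p = 1 in each). It was called at 0% of all genes by the logistic model, which had 747, 522 and 67 genes at an unadjusted p under 0.05 for starts, bodies and wider regions. By edgeR the counts called were 0, 16 and 11, with 727, 607 and 78 at an unadjusted p under 0.05. Each count at that threshold is smaller than the threshold alone would give if no gene differed. The lack of calls therefore does not show that the genotype difference was equal across tissues.

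E10.5 embryos and E14.5 livers differed far more than the genotypes. From E10.5 embryo to E14.5 liver the windows around the starts were lower by 26.1 points at Timd2 (adjusted p = 1.26e-07), 20.4 at Timd4 (1.08e-05), 25.5 at Havcr1 (2.50e-06) and 30.1 at Havcr2 (3.75e-07). All 4 were called, beside 67.5% of genes, and the median over genes was -0.540 points. In the gene bodies the change was -22.4, -26.7, -25.1 and -25.3 points in the same order, where 84.4% of genes were called and the median was -10.1 points. In the wider regions it was -23.9, -23.4, -23.9 and -16.2 points, where 96.9% were called and the median was -11.2 points. The median start window was methylated at 7.10% in embryos, which leaves little to lose, whereas the TIM starts stood at 78.7% to 94.7% there, so the median is no measure for the starts.

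From E14.5 to E18.5 liver methylation was higher again. Gene bodies were higher by 8.28, 8.06, 8.28 and 7.69 points in the same order and all 4 were called, beside 52.5% of genes with a median of 2.71 points. The wider regions were higher by 8.20, 7.47, 7.73 and 4.65 points and all 4 were called, beside 60.4% with a median of 2.91 points. At the starts, Havcr1 (10.3 points, adjusted p = 0.0303) and Havcr2 (9.98 points, adjusted p = 0.0280) were called and Timd2 (4.78 points, adjusted p = 0.192) and Timd4 (7.28 points, adjusted p = 0.104) were not, beside 25.9% of genes. The call at Havcr1 ended without mutant replicate 2 of E14.5 liver, or without wild-type replicate 1, mutant replicate 1 or mutant replicate 2 of E18.5 liver (adjusted p between 0.0619 and 0.113), and with edgeR (0.0536). The call at Havcr2 ended without wild-type replicate 1 or mutant replicate 2 of E14.5 liver, or without either mutant replicate of E18.5 liver (0.0530 to 0.125). Timd2 was called with 2 kb to either side of the start (6.76 points, adjusted p = 0.00892). With 1 library left out, the difference ran from 1.79 to 7.77 points at Timd2 and from 3.36 to 11.2 at Timd4. It was highest without wild-type replicate 2 of E18.5 liver at Timd2 and without mutant replicate 2 of E18.5 liver at Timd4.

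**Figure D3:**
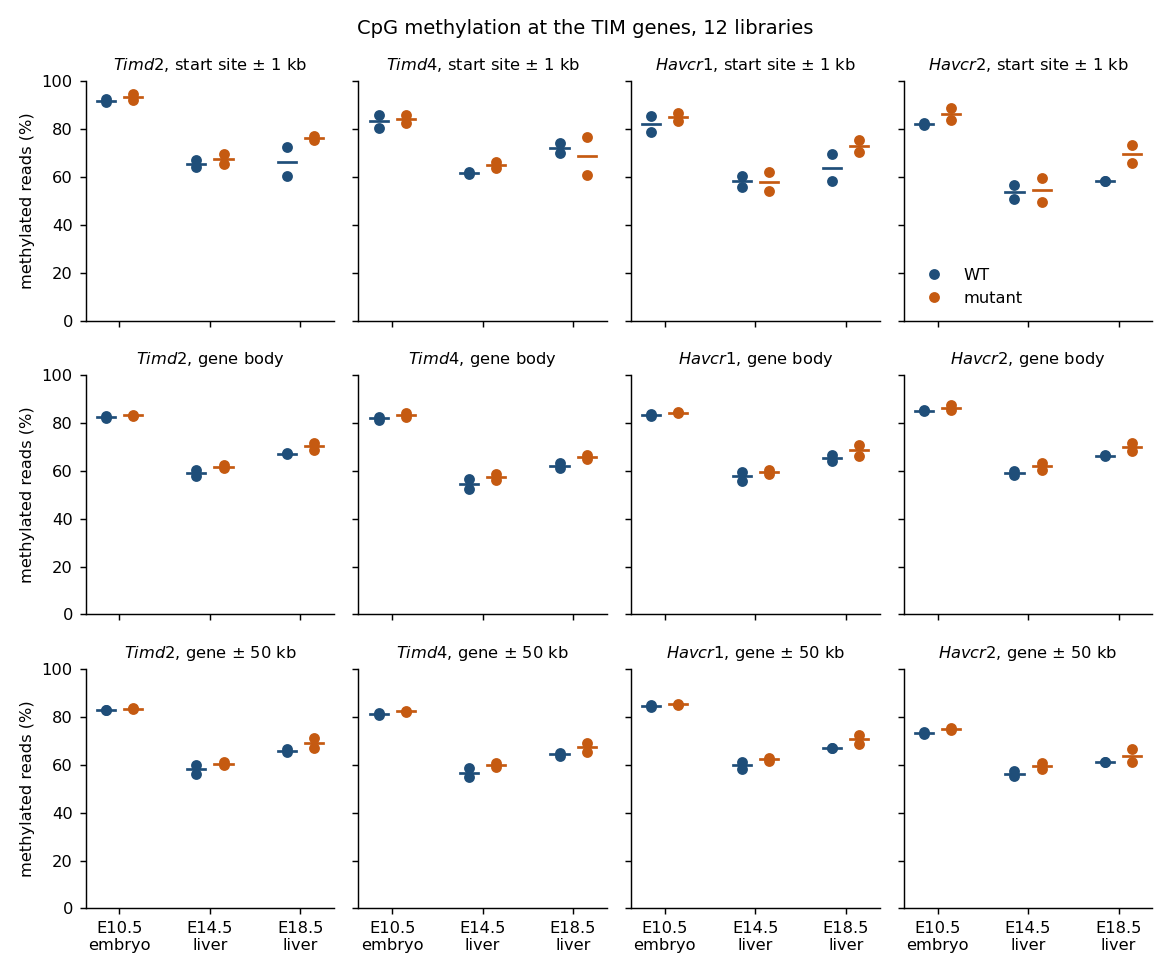
Percent of methylated reads at each TIM gene, for the window within 1 kb of the start, the gene body and the gene with 50 kb to either side. Points are the 12 libraries by tissue and genotype, and horizontal lines are means of 2 libraries. E10.5 embryos lie highest at every gene, and the genotype means lie 3.71 points apart or less in the gene bodies.

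A pair of CpGs just before the start of Timd2 was lower at E18.5 than at E14.5. They lie 104 and 100 bases before the start, the adjacent pair in capitals in the Timd2 sequence above, and had 24 to 96 reads together in each library. They were methylated at 87.5% and 93.4% in wild-type and 92.1% and 84.9% in mutant embryos. In E14.5 livers they were at 46.0% and 53.2% in wild-type and 47.9% and 59.3% in the mutants, and in E18.5 livers at 35.7% and 31.4% against 30% and 32.3%. The 3 sample groups did not overlap, E18.5 livers being lowest, and the genotypes overlapped in each. In wild-type the tested CpGs 81 and 115 bases after the start lay at similar levels at both liver stages. They were at 60.7% and 65.8% of pooled wild-type reads at E14.5 and at 63.0% and 64.2% at E18.5. Mutant livers lay higher without overlap at both CpGs and stages, at 71.3% and 76.8% of pooled reads at E14.5 and 74% and 72.5% at E18.5. In embryos the genotypes overlapped at both CpGs. Single CpGs were not tested for genotype, and over the whole tested window the E14.5 livers overlapped. The third CpG of those 250 bases carried no counts in any library.

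The CpGs of the Havcr2 start went lowest. Its 3 CpGs, at 103 and 37 bases before and 7 bases after the start, had 30 to 128 reads together. They were at 48.9% and 63.3% in wild-type and 61.5% and 78.9% in mutant embryos. In E14.5 livers they were at 3.97% and 10.99% in wild-type and 16.4% and 7.81% in the mutants, and in E18.5 livers at 17.0% and 4.76% against 27.8% and 16.7%. Per length, Havcr2 RNA was at 0.312 RPKM in wild-type E14.5 livers, whereas Timd2, at 46.0% and 53.2% near its start, was at 19.4 RPKM. The 4 CpGs at the Havcr1 start stayed between 65.8% and 69.1% in E14.5 livers and between 81.8% and 90.0% in E18.5 livers. At Timd4, 1 CpG before the start, 173 bases upstream, had enough reads in every library. In E14.5 livers it was at 65.3% and 62.5% in wild-type and lower, at 54.5% and 47.6%, in the mutants. The Havcr1 CpGs were also lower in mutant E14.5 livers, at 67.7% and 65.8% against 68.4% and 69.1%. Both sites overlapped between genotypes in E18.5 livers, and neither was tested alone. At Timd4, 4 CpGs nearer the start missed the read minimum, and they were at 21.9% to 57.4% of pooled wild-type and 40.9% to 53.8% of pooled mutant E14.5 reads.

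The window around the start of Timd2 was then set beside those of genes with at least its count level and of genes with few counts. Of 3215 autosomal genes with at least the wild-type CPM of Timd2 (not scaled by length), 83 (2.58%) had a start window at least as methylated in wild-type E14.5 liver, and their median was 1.91%. Of 7303 genes under 1 CPM, 1564 (21.4%) did, with a median of 50.6%. Depth and CpG number differ between these windows, and the start of Timd2 is poor in CpGs.

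**Figure D4:**
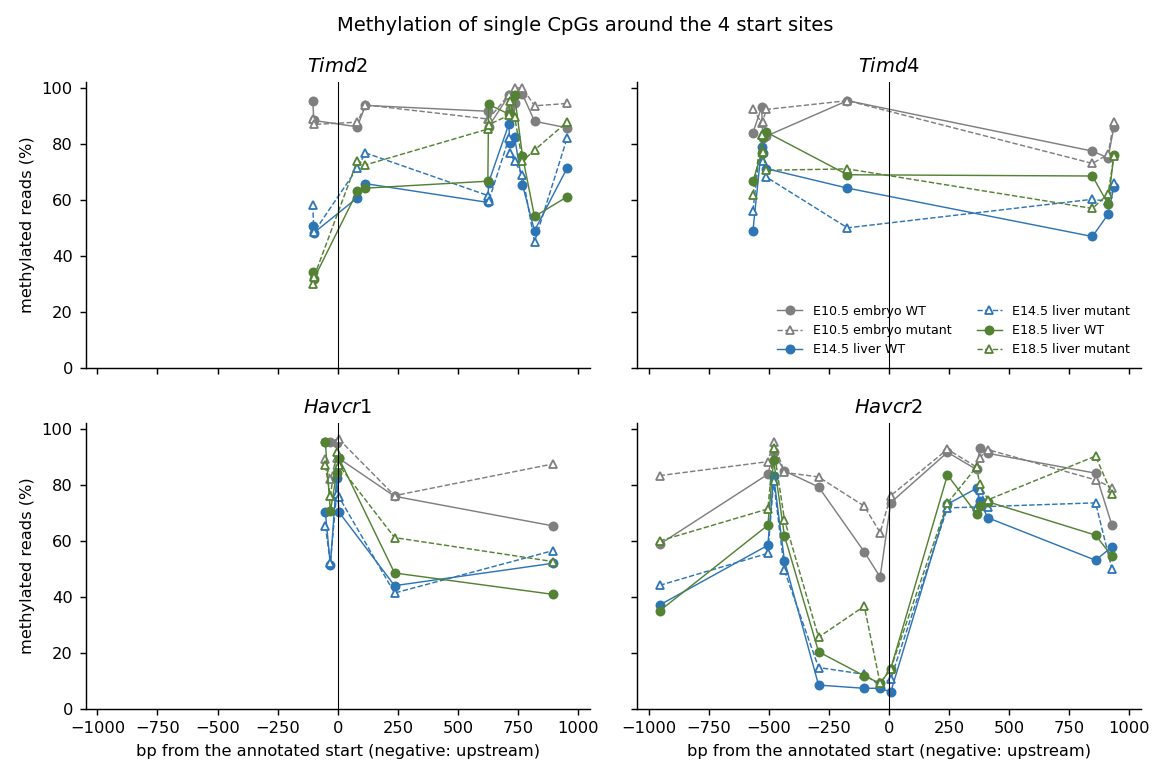
Methylation of single CpGs within 1 kb of the 4 annotated starts, in percent of reads against bases from the start, for the CpGs used in the test. Points joined by lines are the pooled reads of 2 libraries, by tissue and genotype. Just before the start Timd2 dips in E18.5 livers, where its 2 CpGs were at 30% to 35.7% per library, and Havcr2 dips in E14.5 livers, at 3.97% to 16.4%.

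Timd2 has 4 annotated transcripts with starts at 46520563, 46520561, 46512464 and 46503859. The first pair lie 2 bases apart and have the same CpGs. The window at 46512464, 9 CpGs, was at 53.3% ± 4.03 in wild-type and 53.0% ± 0.335 in mutant E14.5 livers (SD, n = 2 each). The window at 46503859, 13 CpGs, was at 66.9% and 64.5% in wild-type and 71.5% and 74.8% in mutant E14.5 livers, a difference of 7.40 points without overlap. It differed by -1.19 points in embryos and 2.96 points in E18.5 livers, and it was not part of the test over genes. The 1 kb tile that holds this start was tested with the tiles described below. That tile, 46503001 to 46504000, differed by 3.98 points over the 3 tissues and was not called (logistic model, adjusted p = 0.0966). The RNA counts are per gene and do not separate these transcripts.

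To place differences inside the cluster, the genome was cut into 1 kb tiles, of which 32670 of 1001234 (3.26%) were called and 31819 of those were higher in the mutants. The TIM genes with 50 kb to either side held 137 tested tiles and 1 of them was called. Their differences ran from -3.31 to 7.58 points with a median of 2.06, and 79.6% were above 0, beside a median of 1.73 points and 78.8% above 0 over all tiles. None differed by over 15 points, a size reached by 1034 called tiles of the genome. Around Timd2, none of 45 tiles was called and their differences ran from -2.78 to 6.25 points.

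The called tile lies between genes, at 46267001 to 46268000 and 437 to 1436 bases before the start of Havcr2. With 1 of 137 tiles called, beside 3.26% of all tiles, the call is not read as a result about the cluster. The tile is shown here, as the called one, by the 200 bases that hold most of its CpGs, from the plus strand of mm9. Every CpG of the stretch is in capitals, whether or not it had reads enough for the test.
Tile before Havcr2, chr11:46267291-46267490: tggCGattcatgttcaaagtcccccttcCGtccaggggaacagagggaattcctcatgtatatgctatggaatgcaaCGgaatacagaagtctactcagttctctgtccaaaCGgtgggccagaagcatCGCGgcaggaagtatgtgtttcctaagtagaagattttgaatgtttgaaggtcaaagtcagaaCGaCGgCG
The 9 CpGs of the tile that were tested, some of them outside the printed stretch, had 161 to 490 reads a library. They were methylated at 83.5% and 85.5% in wild-type and 87.1% and 83.1% in mutant embryos, which overlap. In E14.5 livers they were at 53.7% and 59.9% against 65.1% and 64.4%, and in E18.5 livers at 58.5% and 71.1% against 77.7% and 80.1%, without overlap in either. The tile was chosen by its call, so this separation is no further evidence, and the share of tiles with it was not counted. The mean difference was 7.58 points (adjusted p = 0.0272). The call ended when wild-type replicate 1 of E14.5 liver (adjusted p = 0.181), mutant replicate 1 (0.0719) or 2 (0.0570) of E14.5 liver, or replicate 1 of wild-type (0.114) or mutant (0.0672) E18.5 liver was left out. No tile of the cluster was called with tiles of 2 kb or with at least 10 reads per CpG. The tile holding the Havcr2 start itself differed by 4.64 points (adjusted p = 0.440) and that of Havcr1 by 2.03 points (adjusted p = 0.857). Those of Timd4 and of the Timd2 start at 46520563 had under 5 usable CpGs and were not tested.

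**Figure D5:**
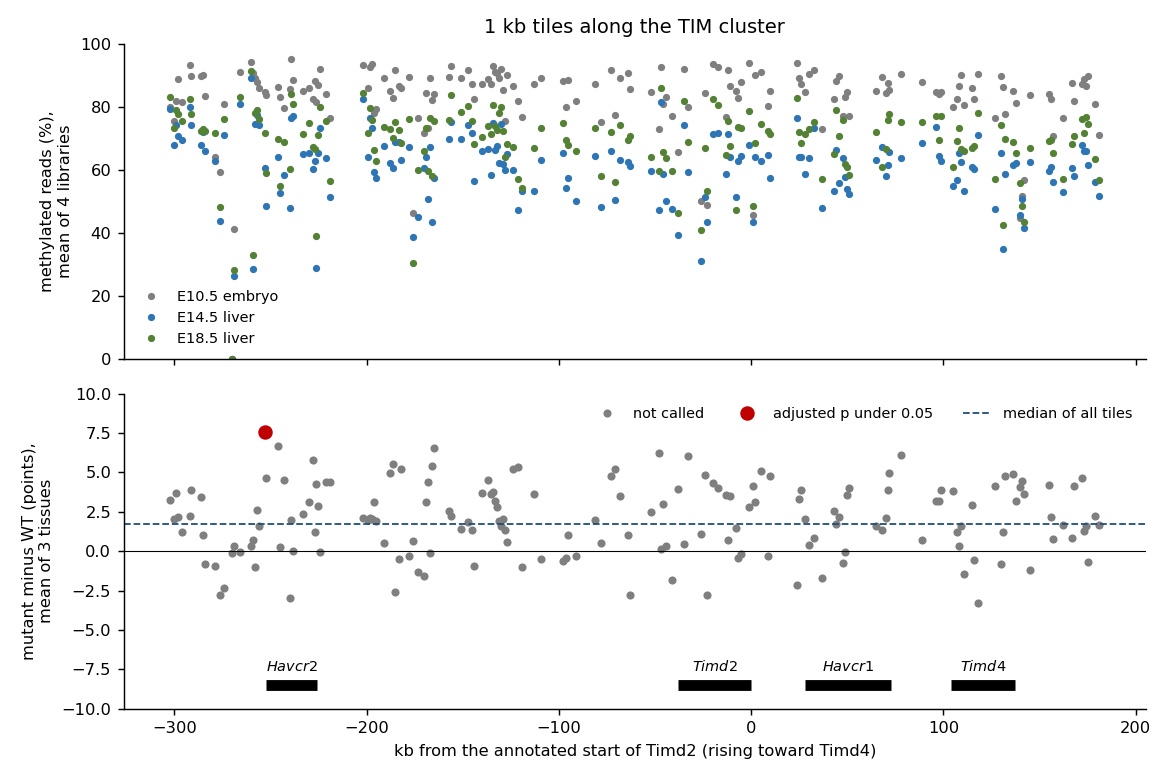
Tiles of 1 kb along the TIM cluster, by distance in kb from the start of Timd2. The upper panel gives the mean percent of methylated reads of 4 libraries for each tissue, and the lower panel the difference between mutant and wild-type in points, with the 4 genes marked and a dashed line at the median of all tiles. Differences stay between -3.31 and 7.58 points and the called tile lies before Havcr2.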

How the data were processed

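For whole-genome bisulphite sequencing the authors trimmed and aligned reads with Bismark and Bowtie2 to mm9 with FVB/NJ substitutions, removed PCR duplicates and merged strands. They deposited counts of methylated and unmethylated reads per CpG beside a rounded percent, and only the counts were used. RNA-seq values are raw counts per Ensembl gene deposited by the authors, made with TopHat and htseq-count without strand and without normalization, so an antisense transcript cannot be told apart from its partner. H3K4me1 ChIP-seq was not analysed here.

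The TIM genes and all gene lists were chosen with earlier results of these data known. RNA-seq was fitted with edgeR 4.0.16 (TMM, its default filter on low counts, quasi-likelihood test, genotype only). Methylation used CpGs that had 6 reads or more in each of the 12 libraries, at least 5 CpGs per region, GENCODE vM1 positions, and a quasi-binomial logistic model of tissue and genotype with dispersion moderated by limma 3.58.1 (squeezeVar, R 4.3.3). Benjamini-Hochberg adjustment ran over all features and calls are at an adjusted p under 0.05. Both fits were tried on simulated data with known changes. For methylation these were gene bodies only, at shifts larger than those of the TIM gene bodies. Starts, wider regions and tiles were not simulated. DESeq2 1.42.0 was an alternative for counts. Sequences were read with samtools 1.23.1, and numpy 2.4.6, scipy 1.17.1, pandas 2.3.3 and matplotlib 3.10.9 were used in python 3.11.15.

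Genes named are the 4 members, protein-coding genes within 50 kb, listed genes that were called, the most abundant genes of lists, the 5 genes most correlated with Timd2 over livers, and Rlf. The value of 1 listed gene is not reported here. Tiles named are those called near the genes and those holding a start. Sema4a, Cd3d, Emr1, the C1q genes, Epcam, Krt19, Krt7, Itga2b, Clec4f, Vsig4 and Cd68 were added after their values were seen. Deviations from the group means were correlated between RNA-seq livers of the same number (r = 0.140, 0.221 and 0.415 over 14183 genes), replicate 3 being female in both genotypes. The pairing comes from this check, and RNA-seq values with the block are given where it moves a count or call of a listed gene. Alternatives covered read minimum, region size, tile width, tool, normalization, filter, sex, block, single tissues and leaving out each library. Values of reads carry counting error only within a library. The p-values rest on a spread between these samples that is moderated across all features, so it is not that of each gene or region alone. The study describes the samples as biological replicates.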

Additional observations from a re-analysis of the deposited data

How the results depend on the processing

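The RNA values of Timd2, Timd4 and Havcr2 kept their direction in all 11 alternatives. Over the 12 methylation differences by genotype of the 4 members (4 genes, 3 scales), 192 of 234 alternative values kept direction and side of the threshold, 22 lost a call, 13 gained one and 7 changed sign. All 186 values of E14.5 liver against E10.5 embryo kept both, 174 of 186 did for E18.5 against E14.5 liver, and all 198 interaction values did. The sign changed for Havcr1's start with E14.5 liver alone (-0.190 points) and for Timd4's start with E18.5 liver alone (-3.43 points) and with 1 library left out (-2.26 to 2.97 points over 12 libraries, below 0 without E10.5 wild-type replicate 1, E10.5 mutant replicate 2, E14.5 mutant replicate 1, E18.5 wild-type replicate 2 or E18.5 mutant replicate 1, at -0.584, -0.180, -0.0145, -0.358 and -2.26 points). None of these values passed the test, and the causes were not tested.

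Counts of genes called by genotype moved more. At the starts, 1743 became 1161 with edgeR, and 314, 169 and 159 with E10.5, E14.5 and E18.5 alone. In gene bodies, 4237 became 49, 497 and 95 with 1 tissue and 1186 to 8884 with 1 library left out, lowest without E14.5 wild-type replicate 1 and highest without E18.5 mutant replicate 2. In the regions with 50 kb, 13717 became 2, 80 and 2 with 1 tissue and 5416 to 19337 with 1 library left out. The causes were not tested. E18.5 against E14.5 liver at the starts went from 5160 to between 3098 and 5411 with 1 library left out. Tiles went from 32670 to 1034 with a difference over 15 points required, and to 17515 to 49719 with 1 library left out. In the tile set of the TIM genes, 0 to 3 were called with 1 library left out, and 0 with 2 kb tiles, with at least 10 reads per CpG or with over 15 points required. The interaction, called at 0 genes, was called at 16 gene bodies and 11 wider regions with edgeR, 4 regions with 20 kb, and 0, 0 to 16 and 0 to 12 genes at the 3 scales with 1 library left out. RNA-seq calls went from 197 to 532 with no filter on low counts, 256 with DESeq2, and 66 to 225 with 1 liver left out, lowest without mutant replicate 1.

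With replicate number as a block, RNA-seq called 460 genes and the calls of listed genes were kept, with Marco, Itga2b, Epcam and Vim added. In the bisulphite data, same-numbered libraries did not deviate together in every tissue (r from -0.0387 to 0.428), so the numbers were not taken as pairs. In E14.5 liver they did (r = 0.428, 0.234 and 0.185 at the 3 scales), as they did in E10.5 embryos in gene bodies (0.177) and wider regions (0.264), and replicate 1 is male and replicate 2 female in E14.5 liver in both genotypes. The block gave 2232 genes by genotype at the starts, 2 and 4 interaction calls at starts and bodies, and calls for the bodies of Timd4 and Havcr2 (adjusted p = 0.0397 and 0.0480), as did a minimum of 1 read per CpG (0.0382 and 0.0458). It changed no other call of the members.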
